A study of Mus musculus with 47 samples.

Results

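The beta-defensin genes of the mouse were taken as every symbol in the count files made of Defb and a number, plus Spag11a and Spag11b, which gave 44 of the 23416 genes counted. RNA had been sequenced from motile spermatozoa of the cauda epididymis and from liver, with 2 biological replicates per group. Ctrl-F1 males were fathered by wild-type males and KO-F1 males by Scml2-KO males, in both cases by intracytoplasmic injection (ICSI) of testicular sperm into BDF1 oocytes. KO-F2 males came from natural mating of KO-F1 males with C57BL/6 females. The F1 males had a BDF2 background and the F2 males a BDF3 background, and all were 8 to 12 weeks old. Scml2 lies on the X chromosome, which a father does not pass to his sons, so males of all 3 groups carry a wild-type allele. Liver was collected from the Ctrl-F1 and KO-F1 groups only. No KO-F2 counterpart fathered through Ctrl-F1 males was analysed here. A sequencing run is named in the labels of the KO-F2 but not of the F1 sperm libraries. In comparisons with KO-F2, generation, mode of conception (ICSI or natural mating), background and run therefore cannot be told apart.

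Beta-defensins are small, positively charged peptides that are held in shape by disulfide bonds and secreted by epithelia, where they damage the membranes of microbes. In the mouse they lie in gene clusters that arose by duplication. Many of them are made by the epithelium of the epididymis, the duct in which sperm mature, and some of these peptides bind to the sperm surface and affect motility or passage through the female tract. Mature spermatozoa transcribe little, so their RNA comes mostly from the testis, and an epididymal transcript in a sperm library may come from the sperm or from material collected with them.

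Sperm libraries held between 1503733 and 2778171 counts in the F1 groups, 11462105 and 8384266 counts in KO-F2, and liver libraries between 11339729 and 14278900. A count of 3 was taken as the limit of detection, which corresponds to between 1.08 and 2.00 CPM (counts scaled to a common library total) in the F1 sperm libraries and to 0.262 and 0.358 CPM in the KO-F2 libraries. The ribosomal RNA gene Rn45s took between 3.52% and 28.7% of the counts of a sperm library. Scml2 itself had between 0 and 18 counts in a sperm library and 0 in every liver library. The libraries were compared as labelled. Transcripts of late spermatogenesis summed to between 47928 and 165671 CPM in the sperm libraries, and liver markers summed to at most 2.88 CPM in any of them. Intervals and limits cover counting error only, since sperm cDNA was amplified by PCR without molecular identifiers.

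The 44 genes fall into 5 places on 4 chromosomes of GRCm38, with Defb33 standing apart. The chromosome 2 cluster (chr2:152459055-152623053) holds 11 members. The proximal chromosome 8 cluster (chr8:18974914-19497775) holds 16 members, among them Spag11a, Spag11b and the Defb37 to Defb40 group. Defb33 lies alone at chr8:20892667-20897723. The distal chromosome 8 cluster (chr8:21776555-21948622) holds 9 members, from Defb1 to Defb13, and homozygous deletion of this stretch is known to leave male mice infertile. The chromosome 14 cluster (chr14:62977524-63048606) holds 5 members, and Defb18 and Defb41 form a pair on chromosome 1 (chr1:18236402-18265138). Every member is a short gene of 2 or 3 exons.

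Neighbours within the distal chromosome 8 cluster are so alike that they bear on how reads could be assigned. The first 75 coding bases, the length of a read, are shown for 4 of them, read from the GRCm38.p6 genome along GENCODE M21 models on the gene's own strand, with capitals where the 4 genes do not all carry the same base.
Defb2: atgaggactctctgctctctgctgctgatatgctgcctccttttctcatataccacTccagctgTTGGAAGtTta
Defb11: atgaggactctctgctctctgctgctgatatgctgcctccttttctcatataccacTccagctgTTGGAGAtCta
Defb9: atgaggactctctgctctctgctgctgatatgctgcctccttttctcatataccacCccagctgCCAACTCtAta
Defb10: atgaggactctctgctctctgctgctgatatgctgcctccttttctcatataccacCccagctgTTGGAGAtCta
Counted from the start codon, the 4 genes shared their first 56 bases, and 66 of the 75 bases were the same in all of them. Defb2 and Defb11 shared 69 bases in a row, and Defb11 and Defb10 differed at 1 of the 75 bases. These stretches encode the start of the signal peptide, which directs secretion. Over whole transcripts, 12.1% of the 75-base stretches of Defb2 and 11.5% of those of Defb11 also occurred in transcripts of another gene. For Defb10 it was 4.5% and for Defb9 0.4%. Since only uniquely aligned reads were counted, reads from such stretches were not assigned, and reads with a sequencing error could be assigned to a neighbour. In all, 8 members shared a 75-base stretch with another gene, of which Spag11a (31.2% of its stretches) and Defb15 (22.1%) shared the most. Spag11a shared its stretches with Gm45826 and Defb15 with Gm36879. Transcripts were compared and not genome positions, and reads from gene models at the same place would still align uniquely. The effect of shared stretches on the values of these 8 genes was therefore not settled. Another gene lies over exons of Defb13, Defb36 and Defb37, and because the strand setting of the counting is not given in the sources used here, its reads could not be told apart from theirs.

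A member was taken as detected where a library had at least 10 counts of it. In Ctrl-F1 spermatozoa 19 and 18 members were detected, in KO-F1 22 and 18, and in KO-F2 31 and 31. In all, 34 members were detected in at least 1 sperm library. The set of 15 found in all 6 sperm libraries was Defb1, Defb2, Defb9, Defb11, Defb25, Defb26, Defb28, Defb33, Defb37, Defb38, Defb39, Defb40, Defb42, Defb43 and Defb48. Of the remainder, Ctrl-F1 replicate 1 added Defb10, Defb20, Spag11a and Spag11b, and replicate 2 added Defb20, Defb22 and Spag11b. KO-F1 replicate 1 added Defb6, Defb10, Defb14, Defb19, Defb20, Defb35 and Spag11a, whereas replicate 2 added Defb10, Defb14 and Spag11a only. KO-F2 replicate 1 lacked Defb12, Defb22 and Defb35 of the 34, and replicate 2 lacked Defb6, Defb22 and Defb35.

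The longer lists of KO-F2 were those of the deeper libraries. A group of 9 members, Defb15, Defb18, Defb21, Defb29, Defb30, Defb36, Defb41, Defb45 and Defb47, was detected in both KO-F2 libraries and in no F1 library. The KO-F2 libraries held on average 5.05 times as many counts as those of Ctrl-F1. After random thinning of every sperm library to the 1503733 counts of the smallest, 15 and 18 members were detected in the Ctrl-F1 libraries, 20 and 16 in those of KO-F1, and 13 and 17 in those of KO-F2, and 0 of the 9 remained detected in both KO-F2 libraries. At equal total counts, Rn45s included, the numbers of the 3 groups overlapped.

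**Figure D1:**
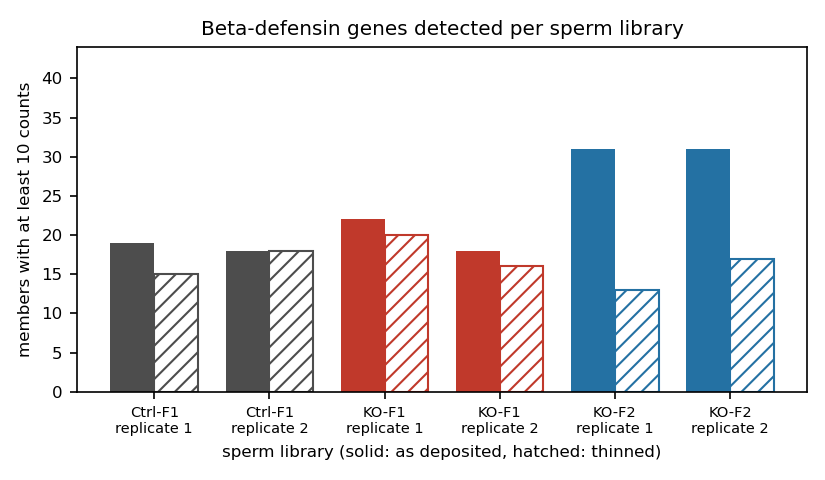
The bars show the number of beta-defensin genes, out of 44, with at least 10 counts in each sperm library, as deposited (solid) and after thinning to the smallest sperm library (hatched). The KO-F2 libraries reach 31 and 31 as deposited and 13 and 17 after thinning.

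A further 10 members were detected in no sperm library. Of these, Defb4, Defb5, Defb7, Defb8, Defb34 and Defb46, all in the proximal chromosome 8 cluster, had 0 counts in every sperm library. Defb4 is known as an inducible defensin of airway and other surface epithelia. The highest count was 5 for Defb13, 3 for Defb50, 2 for Defb3 and 1 for Defb23. The proximal cluster thus had 9 of its 16 members detected in a sperm library, against 10 of 11 on chromosome 2, 7 of 9 in the distal cluster and 5 of 5 on chromosome 14. Among the members detected only at low counts, Defb22, which encodes a protein that coats epididymal sperm, had 0 and 16 counts in the Ctrl-F1 libraries, 5 and 0 in those of KO-F1, and 2 and 6 in those of KO-F2.

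In liver the family was close to absent. The summed counts of all 44 genes were 8 and 14 in the Ctrl-F1 livers, 8 and 0 in the KO-F1 livers, and 42 members had 0 counts in every liver library. Defb1, a defensin that many epithelia make without induction, accounted for 8 and 12 counts in the Ctrl-F1 livers, 8 and 0 in the KO-F1 livers, and Defb30 for 2 counts in Ctrl-F1 replicate 2. A count of 0 in KO-F1 liver replicate 2 allows up to 0.265 CPM. No member passed the filter for testing in liver. Liver and sperm libraries were made with different kits, so tissue and kit cannot be told apart.

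Beta-defensins took a small share of the sperm libraries, and the share was highest in both KO-F1 libraries. In Ctrl-F1 they summed to 3657 counts, 0.151% of the library (95% Wilson interval 0.146% to 0.156%), and to 1286 counts, 0.0855% (0.0810% to 0.0903%). In KO-F1 they summed to 28302 counts, 1.02% (1.01% to 1.03%), and to 7494 counts, 0.359% (0.351% to 0.368%). In KO-F2 the sums were 17837 counts, 0.156% (0.153% to 0.158%), and 9397 counts, 0.112% (0.110% to 0.114%). The lower KO-F1 library lay above all 4 libraries of the other groups, while the Ctrl-F1 and KO-F2 ranges overlapped. The group means were 0.118% ± 0.0461 (SD, n = 2), 0.689% ± 0.466 and 0.134% ± 0.0308. With 2 libraries against 2, an exact permutation test cannot give a two-sided p under 0.33, so no p is given for the sum. In RNA of whole samples, a difference in the number of cells or particles that carry a transcript and a difference in RNA per cell cannot be told apart.

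**Figure D2:**
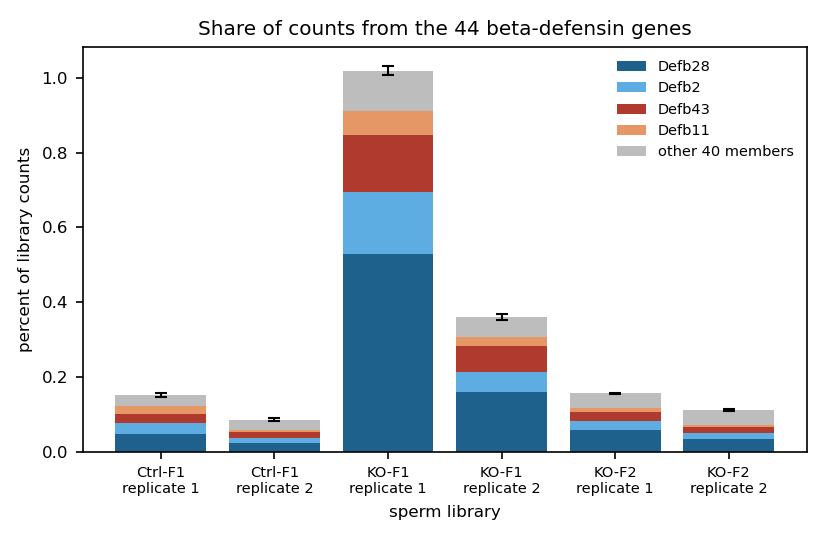
Stacked bars give the percent of each sperm library's counts that fell on the 44 beta-defensin genes, split into the 4 genes with the most counts and the other 40, and error bars are 95% Wilson intervals of the sum. KO-F1 replicate 1 reaches 1.02% and replicate 2 0.359%, and the other 4 libraries lie between 0.0855% and 0.156%.

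A few genes made up most of the sum in every library. Defb28 of the chromosome 2 cluster led in all 6 sperm libraries, with 31.7% and 28.5% of the member counts in the controls, 51.9% and 44.5% in KO-F1, and 38.1% and 31.2% in KO-F2. Together with Defb2 and Defb43 it made up 66.1% and 61.6% in the controls, 83.1% and 78.8% in KO-F1, and 68.4% and 57.7% in KO-F2. The share held by these 3 genes was thus higher in both KO-F1 libraries than in any other. Without Defb28, the remaining 43 members summed to 1029 and 611 CPM in Ctrl-F1, 4896 and 1995 CPM in KO-F1, and 964 and 771 CPM in KO-F2, which kept the KO-F1 libraries on top.

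On a scale per kilobase of exon, which allows levels of different genes to be compared, the order was Defb28, Defb2, Defb43 and Defb11 in each of the 3 group means. Defb28 stood at 910 ± 417 CPM per kilobase in Ctrl-F1 (SD, n = 2), 8678 ± 6577 in KO-F1 and 1187 ± 432 in KO-F2. Defb2 stood at 684 ± 351, 3600 ± 2625 and 613 ± 233, and Defb43 at 469.7 ± 146, 2711 ± 1401 and 486 ± 129.8 in the same groups. Replicates of a group spread widely, but in every sperm library Defb28 lay above Defb2 and Defb2 above Defb43. Defb11 lay above Defb43 in Ctrl-F1 replicate 1 (692 against 573 CPM per kilobase) and below it in the other sperm libraries. Defb33 changed its place, from rank 7 in Ctrl-F1 (77.7 ± 0.476) to rank 17 in KO-F1 (27.5 ± 14.9) and rank 5 in KO-F2 (202 ± 65.8). Defb25 stood at rank 8, 16 and 8.

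**Figure D3:**
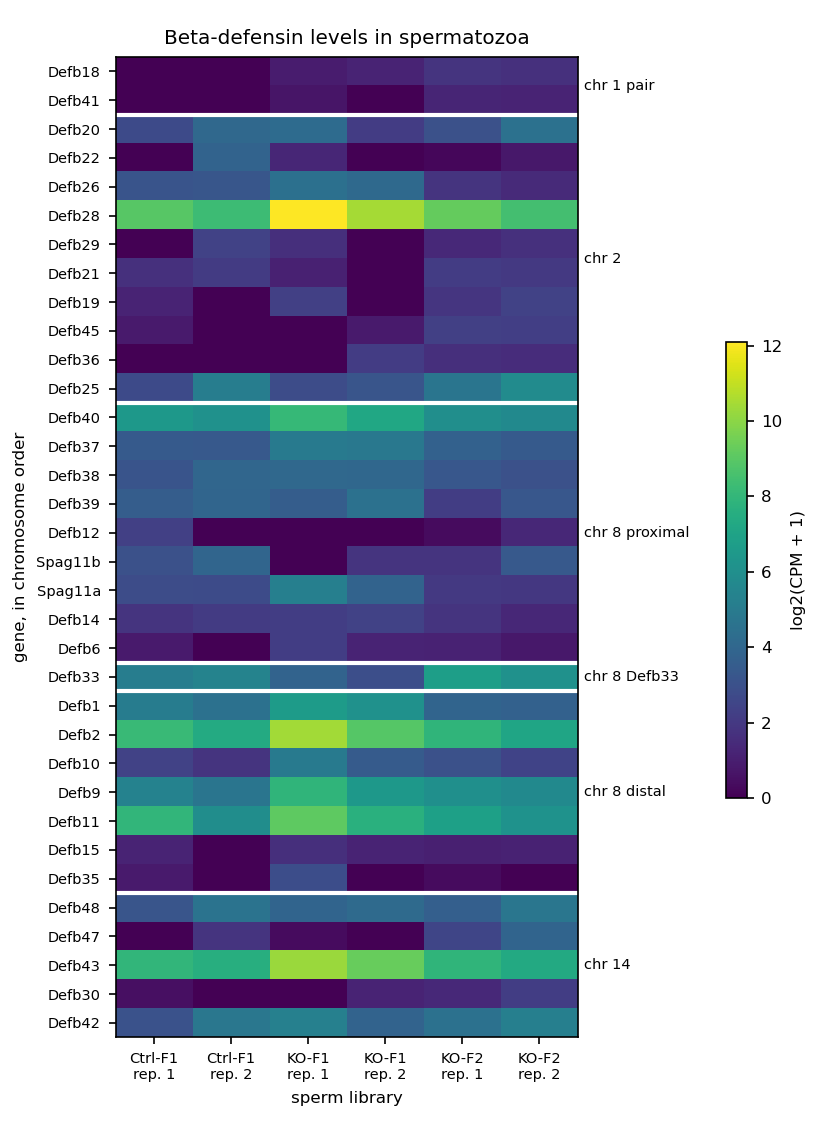
The heatmap shows the level of the 34 members detected in at least 1 sperm library as log2(CPM + 1), with genes in chromosome order (white lines separate clusters) and libraries as columns. Defb28, Defb2 and Defb43 are the brightest rows and brightest in KO-F1 replicate 1, whereas Defb33 and Defb25 are darker in KO-F1 than in KO-F2.

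The comparison of KO-F1 with Ctrl-F1 spermatozoa asks whether sperm RNA of the sons differs with the genotype of their father. Defb28, Defb43 and Defb2, the most abundant members of the chromosome 2, chromosome 14 and distal chromosome 8 clusters, lay higher in both KO-F1 libraries than in both Ctrl-F1 libraries, while the KO-F1 libraries also differed from each other, for Defb28 by 3.08 times. No member passed the call (fold change of at least 2 and adjusted p under 0.01) with edgeR's quasi-likelihood test, and 4 passed it with DESeq2. Levels below are CPM after TMM normalization over the 6 sperm libraries.

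Defb28 had 500.5 and 308 CPM in Ctrl-F1 (1161 and 367 counts) and 4377 and 1422 CPM in KO-F1 (14700 and 3334 counts). Both KO-F1 values lay above both controls. The log2 fold change was 2.79 (SE 0.61, adjusted p = 0.140 with edgeR) and 2.84 with DESeq2 (adjusted p = 1.39e-06). Defb43, on chromosome 14 (chr14:63011771-63018088), had 244 and 189 CPM in Ctrl-F1 and 1249 and 624 CPM in KO-F1. Its groups did not overlap, and its log2 fold change was 2.07 (SE 0.47, adjusted p = 0.140 with edgeR, 3.93e-05 with DESeq2). Defb2, in the distal chromosome 8 cluster (chr8:21839926-21843482), had 297 and 168 CPM in Ctrl-F1 and 1376 and 473 CPM in KO-F1. These groups were also apart, by 1.94 on the log2 scale (SE 0.58, adjusted p = 0.153 with edgeR, 0.00132 with DESeq2). Defb9 (chr8:21881713-21885434) had 40.5 and 25.2 CPM in Ctrl-F1 and 243 and 85.3 CPM in KO-F1, a log2 fold change of 2.26 (SE 0.59, adjusted p = 0.140 with edgeR, 0.00291 with DESeq2). Without KO-F1 replicate 1, the library with the highest level of each of these 4 genes, the edgeR log2 fold changes were 1.80 for Defb28, 1.52 for Defb43, 1.36 for Defb9 and 1.01 for Defb2, with adjusted p between 0.462 and 0.635. In that fit the remaining KO-F1 library is assumed to vary as the controls do.

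Other members with at least 100 counts in a sperm library lay on the same side. Defb40, in the proximal chromosome 8 cluster, had 86.7 and 68.1 CPM in Ctrl-F1 and 278 and 147 CPM in KO-F1, and its log2 fold change was 1.42 (SE 0.46, adjusted p = 0.164 with edgeR). Defb1 had 32.8 and 21.8 CPM in Ctrl-F1 and 100.03 and 68.7 CPM in KO-F1, a log2 fold change of 1.58 (SE 0.50, adjusted p = 0.158). Defb37 had 9.91 and 9.24 CPM in Ctrl-F1 and 31.0 and 27.7 CPM in KO-F1 (log2 fold change 1.58, SE 0.68, adjusted p = 0.252), and its KO-F1 replicates differed by 1.12 times. Defb11 overlapped between groups, with 245 and 60.5 CPM in Ctrl-F1 and 540.1 and 203 CPM in KO-F1 (log2 fold change 1.22, SE 0.71, adjusted p = 0.395). Spag11a, whose product is a defensin-like secretory protein of the epididymis, had 6.04 and 5.88 CPM in Ctrl-F1 against 36.6 and 13.6 CPM in KO-F1, and its log2 fold change was 2.03 (SE 0.85, adjusted p = 0.241). Defb10 had 4.31 and 2.52 CPM against 30.7 and 10.2 CPM, with a log2 fold change of 2.49 (SE 1.01, adjusted p = 0.232).

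Defb33 stood against this direction. It had 34.5 and 42.0 CPM in Ctrl-F1 and 13.4 and 6.40 CPM in KO-F1, so that the groups did not overlap. Its log2 fold change was -1.96 (SE 0.67, adjusted p = 0.177 with edgeR). Scaled to transcripts of late spermatogenesis instead of TMM, it was -0.26, where the median of all genes was 1.75. Defb25, in the chromosome 2 cluster with Defb28, had 5.60 and 34.5 CPM in Ctrl-F1 and 5.95 and 8.10 CPM in KO-F1, which overlapped. Spag11b, the neighbour of Spag11a, had 16 and 17 counts in the controls, compared with 0 and 6 in KO-F1. Defb20, Defb42 and Defb48 overlapped between groups, with log2 fold changes of -0.04 (SE 1.12), 0.60 (SE 0.85) and -0.02 (SE 0.82). The chromosome 2 cluster thus held both Defb28, with groups apart, and Defb20 and Defb25, with groups that overlapped.

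Over the family, 19 of 44 members passed the filter on low counts, of which Defb10 passed only through KO-F1 and Spag11b only through Ctrl-F1. With edgeR, 0 members were called, as were 0% of the 10785 genes tested, for which the smallest adjusted p was 0.140. At an unadjusted p under 0.05, 9 members were higher in KO-F1 against 8.88% of all genes tested, and 1 was lower against 10.6%, or 8 and 1 of the 17 members that reached the filter in both groups. DESeq2 gave an adjusted p for 10 members and called 4 of them higher (2.46% of the genes with an adjusted p) and 0 lower (5.22%). The groups did not overlap for 11 higher members (28.6% of all genes tested) and 2 lower members (25.4%), or 10 and 1 of those 17. The median log2 fold change was 1.22 over the members that passed and 0.02 over all genes tested. These counts describe the members that passed and not the family as a whole.

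The upstream sequences of 5 abundant members are shown because they belong to 4 different places. Defb28, Defb43 and Defb9 lay higher and Defb33 lower in both KO-F1 libraries, short of the call with edgeR, and Defb11 overlapped between the groups. Each is the 250 bases before the annotated start, from RefSeq on GRCm38.p6, read 5′ to 3′ on the gene's strand. Capitals mark AGAACA on either strand, the core hexamer that the androgen receptor binds. The motif TATAAA, a core promoter element upstream of many start sites, was also searched on both strands and has no match in these 5 sequences.
Defb28, chr2:152518005-152518254, plus strand: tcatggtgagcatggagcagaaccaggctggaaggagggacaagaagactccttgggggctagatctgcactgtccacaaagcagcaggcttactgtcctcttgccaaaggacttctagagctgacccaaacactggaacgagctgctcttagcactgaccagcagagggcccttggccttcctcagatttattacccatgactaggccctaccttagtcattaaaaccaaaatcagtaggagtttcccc
Defb43, chr14:63011521-63011770, plus strand: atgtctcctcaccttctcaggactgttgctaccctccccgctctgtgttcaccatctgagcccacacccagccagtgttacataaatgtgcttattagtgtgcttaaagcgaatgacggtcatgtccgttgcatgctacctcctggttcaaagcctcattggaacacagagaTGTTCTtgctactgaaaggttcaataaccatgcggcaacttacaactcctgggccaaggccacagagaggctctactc
Defb9, chr8:21885435-21885684, minus strand: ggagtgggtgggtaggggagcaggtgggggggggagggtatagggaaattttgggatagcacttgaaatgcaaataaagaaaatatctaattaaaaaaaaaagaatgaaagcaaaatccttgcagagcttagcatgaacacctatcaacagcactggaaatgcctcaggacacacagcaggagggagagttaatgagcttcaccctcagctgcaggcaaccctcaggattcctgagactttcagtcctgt
Defb11, chr8:21906433-21906682, minus strand: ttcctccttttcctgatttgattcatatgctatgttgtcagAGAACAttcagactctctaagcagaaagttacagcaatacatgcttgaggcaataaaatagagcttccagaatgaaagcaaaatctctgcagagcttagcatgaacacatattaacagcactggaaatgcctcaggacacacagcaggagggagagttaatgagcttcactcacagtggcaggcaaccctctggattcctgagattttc
Defb33, chr8:20892417-20892666, plus strand: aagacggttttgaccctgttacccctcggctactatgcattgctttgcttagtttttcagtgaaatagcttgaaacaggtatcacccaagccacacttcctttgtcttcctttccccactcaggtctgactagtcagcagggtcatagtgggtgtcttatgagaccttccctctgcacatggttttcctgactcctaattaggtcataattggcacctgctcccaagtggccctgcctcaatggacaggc
Defb43 held AGAACA on its other strand, beginning 78 bases before the start, and Defb11 held it on its own strand, beginning 209 bases before the start, while Defb28, Defb9 and Defb33 held neither motif. Defb9 and Defb11 shared a run of 57 identical bases, whereas the longest run shared by any other of these pairs was 9 bases. Among the 29 members with an upstream sequence in the reference table, 14 held AGAACA on either strand and 5 held TATAAA, compared with 16.1% and 12.4% of all 32851 upstream sequences of that length. Members were counted per gene and the shares over all sequences per sequence, so the measures are not alike. A match describes these letters only, and Defb2, Defb1 and Defb40 had no entry.

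The comparison of KO-F2 with Ctrl-F1 spermatozoa asks the same of grandsons, with the Ctrl-F1 libraries shared with the first comparison. The genes that were highest in KO-F1 were near control level in KO-F2. Defb28 had 599.6 and 355 CPM in KO-F2, which overlapped with the 500.5 and 308 CPM of Ctrl-F1, and a log2 fold change of 0.25 (SE 0.41, adjusted p = 0.848 with edgeR). Defb2 had 240.0 and 139 CPM (log2 fold change -0.29, SE 0.44), Defb43 238 and 163 CPM (-0.10, SE 0.34), and both overlapped with the controls. For these 3 genes 0 lay within 1 SE of the estimate, which leaves changes of either sign possible. Defb9 had 63.1 and 52.1 CPM, above the 40.5 and 25.2 CPM of the controls, with a log2 fold change of 0.80 (SE 0.40, adjusted p = 0.426). Defb1 had 13.8 and 12.6 CPM, below both controls, with a log2 fold change of -1.05 (SE 0.48, adjusted p = 0.385). Defb33 had 107 and 67.5 CPM, above both controls, with a log2 fold change of 1.22 (SE 0.38, adjusted p = 0.234).

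Of the 27 members that passed the filter here, Defb18, Defb19, Defb36 and Defb45 did so only through KO-F2. Defb18 and Defb36 had 0 counts in both Ctrl-F1 libraries, where 3 counts would be 1.29 and 2.52 CPM after TMM normalization. In KO-F2, Defb18 reached 2.47 and 2.18 CPM and Defb36 2.12 and 1.94 CPM on the same scale. The KO-F2 values of both genes lay above the limit of Ctrl-F1 replicate 1 and below that of replicate 2. With edgeR 0 members were called, as were 0% of 13149 genes. At an unadjusted p under 0.05, 1 of the 23 members that reached the filter in both groups, Defb33, was higher (9.07% of all genes tested) and 0 were lower (5.83%). Defb18 and Defb36 also had such a p, but could only come out higher. DESeq2 called 0 members higher (1.16%) and 0 lower (0.993%). The median log2 fold change was 0.08 over these 23 members and 0.07 over all genes tested.

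**Figure D4:**
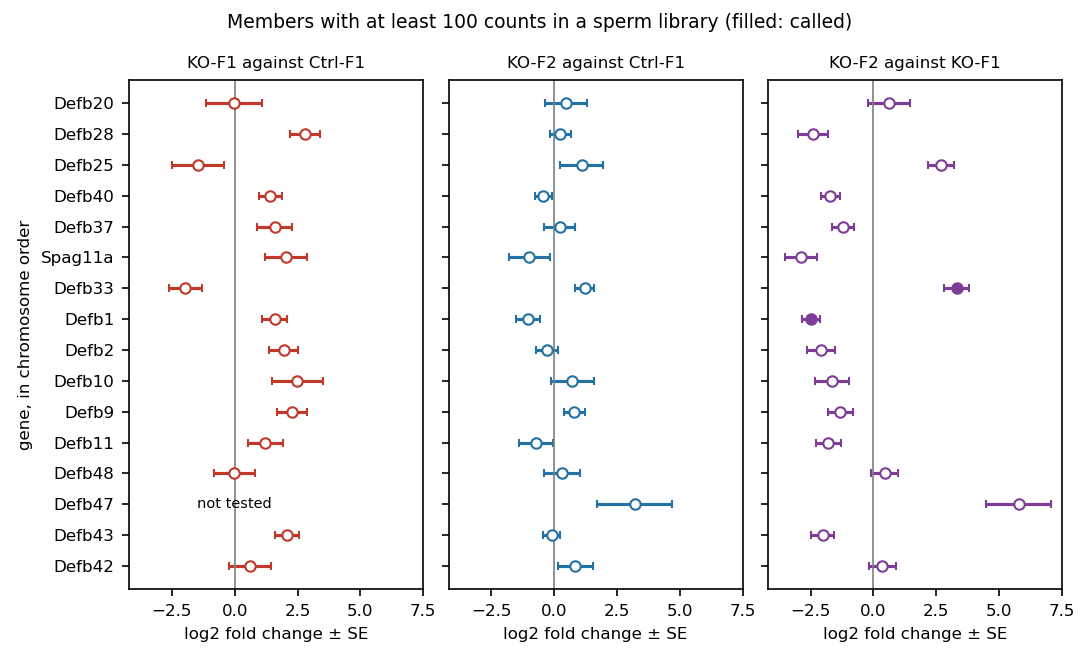
Each panel shows log2 fold changes with standard errors (edgeR) of the 16 members with at least 100 counts in a sperm library, in chromosome order, with filled symbols for called genes. In the left panel Defb28 lies at 2.79 and Defb33 at -1.96, in the middle panel Defb28 lies at 0.25 and Defb33 at 1.22, and in the right panel Defb33 (3.31) and Defb1 (-2.49) are filled.

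Both comparisons with Ctrl-F1 share their controls, so the generations were compared with each other directly. Between KO-F2 and KO-F1 spermatozoa, Defb33 rose and Defb1 fell past the call. Defb33 had 13.4 and 6.40 CPM in KO-F1 and 107 and 67.5 CPM in KO-F2, with no overlap, a log2 fold change of 3.31 (SE 0.49, adjusted p = 0.00986 with edgeR). Defb1 had 100.03 and 68.7 CPM in KO-F1 and 13.8 and 12.6 CPM in KO-F2, with no overlap, a log2 fold change of -2.49 (SE 0.36, adjusted p = 0.00982). Both adjusted p lay just under the threshold, and both calls were lost without KO-F2 replicate 1 (adjusted p = 0.0148 for Defb33 and 0.0294 for Defb1) and with all 3 sperm groups in 1 model (0.0104 and 0.0105). Without KO-F2 replicate 2 Defb33 was called and Defb1 was not. The call of Defb33 was lost in a further refit as well.

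Most other abundant members lay lower in KO-F2 without passing the call with edgeR. The log2 fold change was -2.40 for Defb28 (SE 0.59, adjusted p = 0.0324), -2.09 for Defb2 (SE 0.56, 0.0404), -2.03 for Defb43 (SE 0.44, 0.0232), -1.71 for Defb40 (SE 0.39, 0.0262) and -2.90 for Spag11a (SE 0.64, 0.0237). For all of these genes both KO-F2 libraries lay below both KO-F1 libraries. The same held for Defb11 (-1.79, SE 0.51, adjusted p = 0.0486 with edgeR) and Defb10 (-1.64, SE 0.67, 0.123). It also held for Defb9 (-1.32, SE 0.49, 0.0989) and Defb37 (-1.22, SE 0.43, 0.0857). Defb20 (0.62, SE 0.84), Defb42 (0.34, SE 0.54) and Defb48 (0.44, SE 0.53) had positive log2 fold changes, with groups that overlapped. Defb26, in the chromosome 2 cluster, had 20.8 and 16.6 CPM in KO-F1 and 2.56 and 1.70 CPM in KO-F2 (log2 fold change -2.93, SE 0.63, adjusted p = 0.0223). In the other direction, Defb25 had 5.95 and 8.10 CPM in KO-F1 and 25.2 and 55.4 CPM in KO-F2 (2.69, SE 0.53, 0.0183). Defb47 of the chromosome 14 cluster had 1 and 0 counts in KO-F1 and 55 and 116 counts in KO-F2, and passed the filter only through KO-F2, as did Defb18, Defb21 and Defb45.

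Of 27 members that passed the filter, 2 were called with edgeR, against 2.31% of 13517 genes. Of the 23 that reached the filter in both groups, 2 were higher at an unadjusted p under 0.05 (22.4% of all genes tested) and 11 lower (14.4%), and the groups did not overlap for 2 higher (33.9%) and 14 lower members (32.4%). Among the same 23, DESeq2 called 2 higher, namely Defb25 and Defb33 (9.29% of genes), and 8 lower, namely Defb1, Defb2, Defb11, Defb26, Defb28, Defb40, Defb43 and Spag11a (4.36%). DESeq2 also called Defb47, which could only come out higher. The median log2 fold change was -1.22 over the 23 members and 0.13 over all genes tested.

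Replicates within a group differed in the same direction for many abundant members. Of the 16 members with at least 100 counts in a sperm library, 14 were higher in KO-F1 replicate 1 than in replicate 2, and 11 had their highest level of all 6 libraries in KO-F1 replicate 1. Defb33 was highest in KO-F2 replicate 1, and Defb20, Defb25, Defb47 and Defb48 were highest in KO-F2 replicate 2. Defb1, Defb2, Defb9, Defb10, Defb11, Defb28, Defb37, Defb40, Defb43 and Spag11a were higher in replicate 1 than in replicate 2 of each of the 3 groups, where the numbers only name different males. These members were listed for this pattern, so it holds by selection. No share over all genes is given beside these counts, and joint variation of the members was not tested.

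Other genes of the epididymis lay on both sides. The list of 24 other secreted epididymal proteins summed to 21328 and 7016 CPM in the controls, 11864 and 14160 in KO-F1, and 3776 and 2069 in KO-F2, so that the F1 groups overlapped. Crisp1, a cysteine-rich secretory protein that attaches to sperm, made up most of it, with 18255 and 5448 CPM in Ctrl-F1 against 9227 and 11544 CPM in KO-F1. Without Crisp1 the list summed to 3074 and 1567, 2637 and 2616, and 919.7 and 809 CPM in the 3 groups. In KO-F1 against Ctrl-F1, 9 of the 15 tested genes of the list were higher and 6 lower, 0 were called with edgeR, and the median log2 fold change was 0.34. Adam7, a membrane protein handed to sperm in the epididymis, was at -0.60 (SE 0.47), and Clu, the chaperone clusterin, at -1.01 (SE 0.59). Rnase12, of the ribonuclease A family, had 147 and 112 CPM in the controls, compared with 627 and 270 in KO-F1, with no overlap (log2 fold change 1.32, SE 0.46, adjusted p = 0.182). DESeq2 called 1 gene of the list, the lipocalin Lcn12, with 92 and 48 counts in the controls, compared with 962 and 321 in KO-F1 (log2 fold change 2.37, SE 0.49, edgeR adjusted p = 0.140). Lcn12 was picked for naming with its values known. In KO-F2 against KO-F1, 11 of 19 tested genes were lower and 8 higher, with a median of -1.06 and 0 called with edgeR.

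Markers of epithelial cells summed to 2605 and 2989 CPM in the controls, 2566 and 2460 in KO-F1 and 1241 and 1747 in KO-F2. Of the 10 markers, none of them at 0 in every sperm library, 5 had a higher and 5 a lower fitted level in KO-F1 than the controls, with 0 called with edgeR. The groups did not overlap for the 5 higher markers (28.6% of all genes tested) and for 3 lower markers (25.4%). At an unadjusted p under 0.05 with edgeR, 4 were higher (8.88% of all genes tested) and 1 was lower, Cldn3 (10.6%). The keratin gene Krt18 had 83.2 and 47.2 CPM in the controls, 322 and 176 in KO-F1, and 64.2 and 73.8 in KO-F2. Krt19, another keratin gene, had 59.3 and 41.2, 274 and 142, and 62.6 and 109 CPM. Both were thus highest in KO-F1 replicate 1, as Defb28 was. Epcam, also among the 4 highest markers, had 227 and 118, 105 and 206, and 41.4 and 21.3 CPM, and its F1 groups overlapped. The sum was carried by the tight junction gene Cldn3, with 1995 and 2562 CPM in the controls and 1359 and 1583 in KO-F1. In KO-F2, 8 of the 10 markers were lower than in KO-F1. The part of these epithelial markers in the differences of the beta-defensins was not tested. Basal cell markers stayed between 9.31 and 38.6 CPM, clear cell markers between 48.2 and 425 CPM, and markers of smooth muscle and fibroblasts between 183 and 746 CPM. Leukocyte markers summed to 324 and 601 CPM in the controls, 377 and 459 in KO-F1, and 1734 and 1941 in KO-F2, where 9 of 9 tested were higher than in KO-F1 and 3 were called. The 24 transcripts of late spermatogenesis, led by Prm2, Odf1, Smcp and Prm1, summed to 143365 and 127011 CPM in the controls, 63070 and 47928 in KO-F1, and 165671 and 162994 in KO-F2. In KO-F1 all 23 tested lay below the controls (median log2 fold change -1.80), while 24 of 24 were higher in KO-F2 than in KO-F1, with 5 called. The spermatid transcripts were thus low in the libraries in which Defb28 was high, and their part in the differences of the beta-defensins was not tested. Relative to the late spermatogenesis list instead of TMM, which shifts the median log2 fold change of all genes to 1.75, 5 members were called in KO-F1 against Ctrl-F1, all higher, as were 3.39% of all genes tested.

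**Figure D5:**
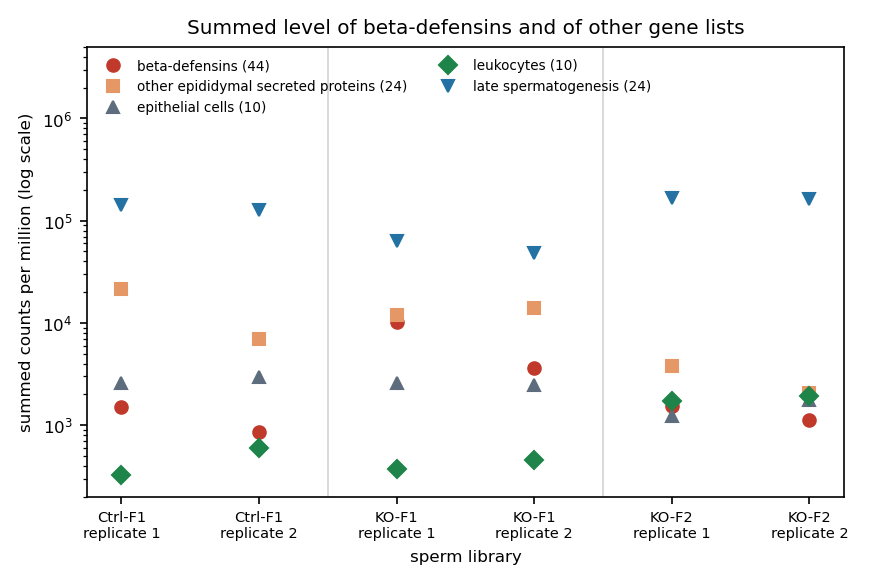
Symbols give, per sperm library and on a log scale, the summed CPM of the 44 beta-defensin genes and of 4 other gene lists. The beta-defensins are highest in the KO-F1 libraries (10187 and 3594 CPM), where the late spermatogenesis list is lowest (63070 and 47928 CPM).

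Of 24 other host-defence genes, 8 were tested in KO-F1 against Ctrl-F1, 4 higher and 4 lower, with 0 called with edgeR and a median log2 fold change of -0.13. Ltf, which encodes the iron-binding protein lactoferrin, had 576 and 325 CPM in the controls, compared with 541 and 698 in KO-F1. Lysozyme Lyz2, which macrophages express, had 1909 and 3217 CPM in KO-F2 and at most 269 CPM in an F1 library. The protease inhibitor Slpi had 158 and 635 CPM in KO-F2 and at most 31.2 CPM in an F1 library. Of the 13 receptors and regulators tied to defensins, such as Toll-like receptors and the androgen receptor, 5 were tested in KO-F1 against Ctrl-F1, of which 3 were higher and 2 lower, with 0 called with edgeR. Rela, a subunit of the transcription factor NF-kappaB that turns on inducible defensins, had 22.7 and 35.9 CPM in the controls, 105 and 70.5 in KO-F1, and 39.9 and 46.2 in KO-F2, and its log2 fold change in KO-F1 against Ctrl-F1 was 1.11 (SE 0.51, adjusted p = 0.282). Myd88, the adaptor of Toll-like receptors, had between 12.0 and 34.6 CPM in a sperm library.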

How the data were processed

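RNA-seq of 10 libraries was used, 6 of spermatozoa and 4 of liver, 2 per group. Per the paper's methods and the labels, single-end reads of 75 bp were aligned with HISAT2 2.1.0 to GRCm38 and uniquely aligned reads were assigned to genes with featureCounts. The annotation and strand setting are not given in the sources used here. The values used are raw counts per gene symbol, as the authors deposited them, not normalized and not pooled. A stranded mRNA kit was used for liver, and a low-input kit with cDNA amplification for total RNA of swim-up sperm. The ChIP-seq and embryo samples of the series were not analysed here.

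Files were joined by symbol, and 2 symbols on 4 lines were left out, which kept 23416 genes. Sperm libraries held 1503733 to 11462105 counts. CPM of individual members are TMM-normalized over the sperm libraries. Levels per kilobase of exon, sums over members, and CPM of other genes and summed lists are relative to library totals. Groups were compared with the quasi-likelihood F test of edgeR 4.0.16 in R 4.3.3 (TMM, filterByExpr defaults with a minimum count of 10), fitted over all genes that passed, with Benjamini-Hochberg adjustment over all of them. A call needed an adjusted p under 0.01 together with a change of 2-fold or more, as the study set for DESeq2. DESeq2 1.42.0 was an alternative. An adjusted p that DESeq2 left out was kept as missing. p-values measure the spread between 2 libraries per group. Code was tested on simulated counts with known changes.

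Members with at least 10 counts in a sperm or liver library were named, but the text gives values for only part of them. Statistics are given for members with at least 100 counts in a sperm library, though not in every comparison, and for Defb26. Members below 10 counts were named by their highest count. From other gene lists, up to 4 genes with the highest mean CPM over sperm libraries could be named, and Lcn12 was picked with its values known. The members and lists were chosen with earlier results of these data known. Upstream sequences are from RefSeq on GRCm38.p6 (29 of 44 members had an entry), and exon lengths and positions from RefSeq, with transcript stretches from GENCODE M21.

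Alternatives were DESeq2's size factors in edgeR, DESeq2, no filter, an adjusted p under 0.05, at least 10 counts in every library, a block for the replicate number, Rn45s left out, all 3 sperm groups in 1 model, scaling to late spermatogenesis, thinning to the smallest library, and leaving out each replicate. A crossed block in liver was added after seeing the data.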

Additional observations from a re-analysis of the deposited data

Results flagged for a closer look

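Defb33 and Defb1 are singled out because the direct test between KO-F2 and KO-F1 spermatozoa passed the call for both in the main fit. Both adjusted p lay just under the threshold. Both calls were lost without KO-F2 replicate 1 and with all 3 sperm groups in 1 model. Against Ctrl-F1, neither gene passed the call in either generation. Defb33, the lone gene between the chromosome 8 clusters, had a log2 fold change of 3.31 between KO-F2 and KO-F1 (adjusted p = 0.00986 with edgeR's quasi-likelihood test). It was lower than in Ctrl-F1 in both KO-F1 libraries (log2 fold change -1.96) and higher in both KO-F2 libraries (1.22). Scaled to late spermatogenesis, its log2 fold change in KO-F1 against Ctrl-F1 was -0.26, where the median of all genes was 1.75. Defb1 had a log2 fold change of -2.49 between KO-F2 and KO-F1 (adjusted p = 0.00982), being higher than in Ctrl-F1 in both KO-F1 libraries (1.58) and lower in both KO-F2 libraries (-1.05). Over the 13 refits of each, the adjusted p ranged from 1.37e-08 to 0.0492 for Defb33 and from 7.72e-07 to 0.0374 for Defb1. Generation, mode of conception, background and sequencing run cannot be told apart in this comparison.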

How the results depend on the processing

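With KO-F1 against Ctrl-F1, the number of members called was 0 and became 4 with DESeq2, 4 without a filter, 4 with at least 10 counts in every library and 5 after scaling to late spermatogenesis, and it was 0 without any replicate. The number of all genes called was 0 and became 390, 113, 200 and 366 in the same order. With KO-F2 against Ctrl-F1 the number of members called stayed 0 in each alternative run, while DESeq2 called 277 of all genes. In liver DESeq2 called 20 of all genes. No member passed the filter there, and the number of members called stayed 0. With KO-F2 against KO-F1 it was 2 and became 11 at an adjusted p under 0.05 without a fold threshold, 11 with DESeq2, 11 without a filter, 10 with at least 10 counts in every library, 12 after scaling to late spermatogenesis and 0 with all 3 sperm groups in 1 model, while the number of all genes called was 312 and became 2759, 2059, 2552, 1805, 3837 and 198. It ranged from 0 to 13 when a replicate was left out, with 13 without KO-F1 replicate 2, 3 without KO-F1 replicate 1, 0 without KO-F2 replicate 1 and 1 without KO-F2 replicate 2. The cause of these changes was not tested. Scaling to late spermatogenesis moved the median log2 fold change of all genes to 1.75 with KO-F1 against Ctrl-F1 and to -1.87 with KO-F2 against KO-F1.

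Same-numbered libraries are different animals. The correlation of their deviations was -0.00934, 0.153 and 0.0601 in the sperm comparisons and -0.162 in liver. With the replicate number as a block, 5 members were called in KO-F2 against KO-F1, and 0 in KO-F1 and KO-F2 against Ctrl-F1. The number of all genes called with the block in KO-F2 against KO-F1 is not given here. The 5 are therefore not read as a result about the members. In liver, where no member passed the filter, the block and the crossed pairing gave 0.

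The mean number of detected members was 10.5 in Ctrl-F1 at a minimum of 20 counts and 15 in KO-F2 after thinning. The summed share was 0.0867% in KO-F2 without the member with the most counts. Leaving out a replicate gave shares of 0.0855% to 0.151% in Ctrl-F1, 0.359% to 1.02% in KO-F1 and 0.112% to 0.156% in KO-F2, and 18 to 19, 18 to 22 and 31 to 31 detected members.

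Genes near 0 changed sign. In KO-F1 against Ctrl-F1, the log2 fold change of Defb20 became 0.0026 with DESeq2's size factors, 0.0204 without a filter, 0.0135 with all groups and 1.63 after scaling to late spermatogenesis. That of Defb48 became 0.0110 with DESeq2's size factors, 0.0074 with DESeq2, 0.0165 without a filter, 0.0922 with at least 10 counts in every library, 0.13 with the block, 0.0013 with all groups, 1.74 after scaling and 0.13 after thinning. That of Defb25 became 0.28 after scaling. Without a replicate, Defb20 ranged from -1.64 to 0.86, Defb48 from -0.60 to 0.89, Defb42 from -0.32 to 1.77 and Defb25 from -2.29 to 0.29. In KO-F2 against Ctrl-F1, Defb43 became 0.0018 with at least 10 counts in every library and Defb48 -0.0926 after thinning. Without a replicate, Defb43 ranged from -0.37 to 0.18, Defb11 from -1.35 to 0.70, Defb2 from -0.71 to 0.24, Defb20 from -0.54 to 1.40, Defb48 from -0.39 to 1.23 and Defb28 from -0.15 to 0.70. In KO-F2 against KO-F1, scaling to late spermatogenesis gave -1.28 for Defb20, -1.59 for Defb42 and -1.55 for Defb48. Without a replicate these ranged from -0.30 to 2.19, from -0.23 to 1.20 and from -0.18 to 0.92. The depth of the F1 sperm libraries limits members below about 2.00 CPM relative to library totals.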
